A study of Arabidopsis thaliana with 4 samples.

Results

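The nuclear genes described here had at least 3-fold higher signal in shoots of Arabidopsis thaliana plants that overexpress bHLH122 than in wild-type shoots. A probe set is a group of short probes on an Affymetrix array that are read together, for 1 transcript or for several. It was a member when the mean log2 signal of both overexpressor arrays exceeded that of both wild-type arrays by at least log2 of 3. Both overexpressor arrays also had to lie above both wild-type arrays. Of 22746 probe sets other than controls, 45 met these conditions. Left out were 10 probe sets of named plastid genes, 2 unnamed ones whose identifiers lie between those of plastid genes, and ATSPS4F, CRR21 and CHR17. The remaining 30 probe sets are the members. The annotation gives 1 gene for 18 of them and none for the other 12. The nuclear origin of these 12 therefore rests on no annotation, and they may not be 12 separate genes.

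The groups were shoots of bHLH122 overexpressors in the Col-0 background (2 arrays) and of untreated wild-type Col-0 (2 arrays). Seeds were stratified for 96 h, and plants grew for 1 week on MS medium and 2 weeks in soil before the parts above ground were harvested. The overexpressor arrays are described as independent lines in one label, while both titles carry line number 18, and the promoter that drives the transgene is not given in the sources used here. No source describes the wild-type plants as separately grown, and the spread between arrays that enters the errors below may therefore be technical. In whole shoots, more cells of a type and more RNA per cell cannot be told apart.

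bHLH122 is a basic helix-loop-helix transcription factor, a class of proteins that bind DNA as dimers at short sites called E-boxes. It is known from drought and salt responses and from repression of a gene of abscisic acid breakdown. The members with a role given below do not belong to 1 pathway. They include genes for membrane lipid synthesis, for starch granule initiation and RNA handling in plastids, for nuclear RNA-binding and chromatin-related proteins, and for a peptidase and a cell wall enzyme.

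The 30 members made up 0.133% of the 22537 probe sets that could have been chosen. Their fold changes ran from 3.00 to 5.63, with a median of 3.30, and 6 of the 30 were at least 4-fold higher. Members were chosen by these values, which are given as a description, with no test. For comparison, both overexpressor arrays lay above both wild-type arrays, by any amount, on 29.1% of all probe sets. Values below are log2 signals, given for replicates 1 and 2 of each group in that order. Differences are between group means on the log2 scale, with the limma standard error (SE). The limma SE draws the variance of each probe set towards a value shared by all probe sets. It is therefore not the spread of that gene's arrays alone. In every member the groups are apart by construction, and the smallest gap between the lower overexpressor array and the higher wild-type array was 1.21.

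**Figure D1:**
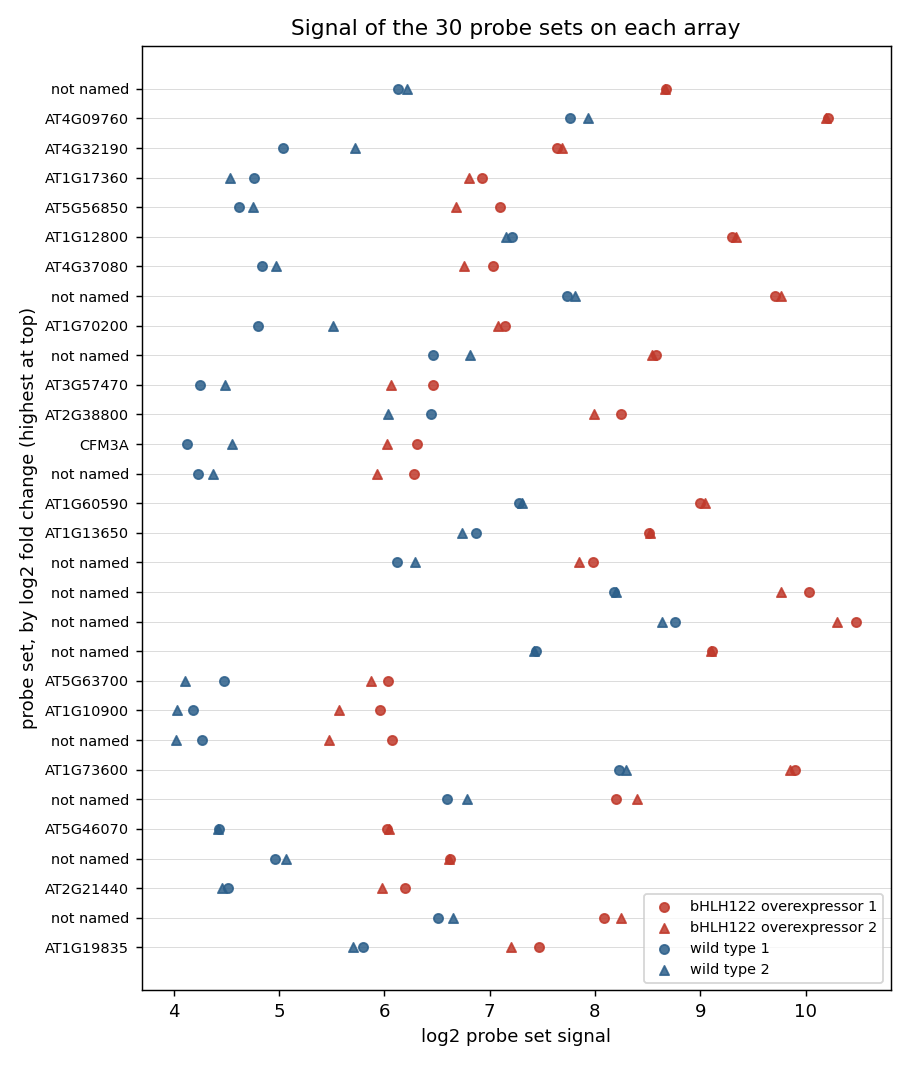
Log2 signal of each of the 30 member probe sets (rows, highest log2 fold change at the top) on each overexpressor array (red) and each wild-type array (blue), with circles for replicate 1 and triangles for replicate 2. The arrays of a group lie close together in most rows, and the widest spreads are between the wild-type arrays for AT4G32190 and AT1G70200.

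Among the lipid genes, AT4G09760 had the highest fold change of the named members. It encodes a choline/ethanolamine kinase, an enzyme that phosphorylates the head group used to build phosphatidylcholine and phosphatidylethanolamine, the main phospholipids of membranes outside the plastid. Its signal was 10.21 and 10.19 in the overexpressors, against 7.76 and 7.94 in wild type. The overexpressor arrays nearly coincided, and the difference was 2.35 (SE 0.11), a 5.11-fold change. AT1G73600 encodes a phosphoethanolamine methyltransferase, an enzyme of the route that turns phosphoethanolamine into phosphocholine. Its signal was 9.90 and 9.85 in the overexpressors and 8.23 and 8.30 in wild type, a difference of 1.61 (SE 0.10). The arrays of each group differed by less than 0.1. AT1G10900 belongs to the phosphatidylinositol-4-phosphate 5-kinases, which make the signalling lipid phosphatidylinositol bisphosphate. It read 5.96 and 5.57 in the overexpressors and 4.18 and 4.03 in wild type. Overexpressor replicate 1 was the higher of its pair, and the difference of means was 1.66 (SE 0.15).

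Several members encode plastid proteins. Plastids keep a small genome of their own, but most proteins that process its transcripts, and the enzymes that build starch inside the organelle, are encoded in the nucleus. AT4G32190 encodes a long coiled-coil protein of the chloroplast, known as PII1 or MRC, that takes part in starting starch granules. Its signal was 7.64 and 7.69 in the overexpressors, against 5.04 and 5.73 in wild type. The wild-type arrays were 0.68 apart, so the difference of 2.28 (SE 0.22) ranged from 1.92 to 2.64 over the 4 pairings of an overexpressor with a wild-type array. AT1G12800 encodes a plastid protein with an S1 RNA-binding domain. It read 9.31 and 9.34 in the overexpressors and 7.22 and 7.16 in wild type. The replicates of each group lay within 0.1 of each other, and the difference was 2.13 (SE 0.09).

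AT1G70200 encodes a protein with an RNA recognition motif. It had a signal of 7.15 and 7.08 in the overexpressors, against 4.80 and 5.51 in wild type. Its wild-type arrays were 0.71 apart, the widest spread within a group of any member, and the difference of 1.96 (SE 0.22) ran from 1.57 to 2.35 over the array pairings. CFM3A encodes a protein of the CRM family, whose members help to splice group II introns in plastid transcripts. Its signal was 6.31 and 6.03 in the overexpressors and 4.13 and 4.55 in wild type. The wild-type arrays were 0.42 apart, and the difference was 1.83 (SE 0.17).

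Other members encode proteins tied to RNA, chromatin or the nucleus. AT2G21440, a gene for a protein with RNA recognition motifs, had a signal of 6.20 and 5.98 in the overexpressors, against 4.52 and 4.46 in wild type. Overexpressor replicate 1 was the higher, and the difference was 1.60 (SE 0.11). AT5G63700 encodes a protein with zinc finger, SWIB and Plus-3 domains, which occur in chromatin and transcription proteins. It read 6.03 and 5.87 in the overexpressors and 4.48 and 4.11 in wild type. Wild-type replicate 2 was the lower of its pair, and the difference was 1.66 (SE 0.15). AT5G46070 encodes a large GTPase of the guanylate-binding protein family. Its signal was 6.02 and 6.05 in the overexpressors and 4.43 and 4.42 in wild type. This was among the tightest members, with a difference of 1.61 (SE 0.09).

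The remaining members with a known kind of protein had no shared role. AT3G57470 encodes a peptidase of the insulinase (M16) family. It had a signal of 6.47 and 6.06 in the overexpressors, against 4.25 and 4.49 in wild type, a difference of 1.89 (SE 0.16). Overexpressor replicate 1 was 0.41 above replicate 2. AT1G60590 encodes a pectin lyase-like protein of the polygalacturonase type, the enzymes that cut pectin in cell walls. Its signal of 9.00 and 9.04 in the overexpressors stood against 7.28 and 7.31 in wild type, a difference of 1.72 (SE 0.09). Both pairs of replicates lay within 0.1.

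AT2G38800 encodes a calmodulin-binding protein, and calmodulin is the sensor that carries calcium signals to other proteins. It read 8.24 and 7.996 in the overexpressors and 6.44 and 6.04 in wild type, a difference of 1.88 (SE 0.16). Replicate 1 was the higher in both groups. AT1G19835 belongs to the filament-like plant proteins, which are long coiled coils. Its signal was 7.47 and 7.21 in the overexpressors and 5.80 and 5.70 in wild type, a difference of 1.59 (SE 0.12). AT4G37080 encodes a protein of unknown function with a DUF547 domain. It had 7.04 and 6.76 in the overexpressors, against 4.84 and 4.97 in wild type, a difference of 1.99 (SE 0.13).

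No role is given here for AT1G17360, AT5G56850 and AT1G13650. AT1G17360 had a signal of 6.93 and 6.80 in the overexpressors and 4.76 and 4.54 in wild type, a difference of 2.21 (SE 0.12). AT5G56850 had 7.10 and 6.69 in the overexpressors, against 4.62 and 4.75 in wild type, and an equal difference of 2.21 (SE 0.15). The overexpressor arrays of AT5G56850 were 0.42 apart, the most of any named member. AT1G13650 had 8.51 and 8.53 in the overexpressors and 6.87 and 6.74 in wild type, a difference of 1.72 (SE 0.10).

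The 12 members without a gene in the annotation had differences from 1.59 to 2.49, with a median of 1.70. Their mean signals had a lowest, median and highest value of 5.77, 8.43 and 10.39 in the overexpressors and of 4.14, 6.61 and 8.70 in wild type. The largest difference of all members, 2.49 (SE 0.10), belonged to an unnamed probe set with 8.67 on both overexpressor arrays, against 6.13 and 6.22 in wild type. The next unnamed one read 9.71 and 9.77 in the overexpressors and 7.74 and 7.81 in wild type (1.97, SE 0.10). One unnamed member had overexpressor arrays 0.59 apart, the widest spread in that group.

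Over the 30 members, the replicates of a group were about as close as on the arrays as a whole. The median distance between replicates was 0.14 in the overexpressors and 0.14 in wild type, against 0.11 and 0.12 over all probe sets. Overexpressor replicate 1 was the higher of its pair in 22 of 30 members, and wild-type replicate 1 in 12 of 30. The whole arrays leaned the same way. Their median linear signals were 40.8 and 40.2 in the overexpressors and 39.2 and 40.0 in wild type. The matching shares over all probe sets are not given here. In 13 members, 9 of them named, every one of the 4 array pairings was at least 3-fold. None of the members had a wild-type mean under the lower quartile of all probe sets (3.51), although 13 lay under the median of 5.31. No detection calls were used, and how far the dimmer wild-type signals lie above background is unknown.

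The 3-fold threshold passes through a continuous range of values. Just inside it, among named genes, lay AT1G19835 (3.00-fold), AT2G21440 (3.03-fold) and AT5G46070 (3.05-fold). Just outside it, among named genes, lay AT4G29750 (2.98-fold), AT4G33740 (2.98-fold) and AT1G48090 (2.92-fold). AT4G29750 encodes another CRM domain protein, and AT1G48090, whose gene is 26499 bp long, a protein related to the VPS13 lipid transfer proteins.

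Genes of chosen pathway lists were tested with limma across all 22746 probe sets. Of these, 12.2% passed an adjusted p of 0.05 as higher and 11.8% as lower in the overexpressors. The lists for starch synthesis, starch breakdown, phosphatidylcholine synthesis, the circadian clock, light signalling and plastid sigma factors hold 82 genes, of which 13 have a named probe set, 2 of them members. Of the 11 others, 5 rose and none fell, while 6 did not pass. Their median difference was 0.22, against -0.02 over all probe sets. The median length of these 11 genes was 3314 bp. Of nuclear probe sets, 12.5% for genes from 2000 to under 4000 bp and 28.7% for longer genes passed as higher. With the trend of between-array signal differences on gene length removed, 4 of the 11 were higher and 2 lower, with a median of 0.06. The share of all nuclear probe sets that passed with this trend removed is not given here. Named probe sets covered 5 of 18 genes of starch synthesis and 2 of 16 of starch breakdown. They covered 5 of 11 genes of phosphatidylcholine synthesis and 1 of 15 of the clock. The counts below therefore describe the measured genes and not the pathways. No gene of the light signalling and sigma factor lists has a named probe set, and these are not analysed here. The starch synthesis and phosphatidylcholine lists contain a member each by choice, and the other lists contain no named member.

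Of 4 other measured genes of starch synthesis, 2 rose and none fell. AT5G03420 encodes PTST3, a carbohydrate-binding protein that acts with the initiation machinery. It had a signal of 6.24 and 6.05 in the overexpressors and 4.83 and 4.84 in wild type, a difference of 1.31 (SE 0.11, limma adjusted p = 0.00116). The branching enzyme gene SBE2.2 had 8.77 and 8.65 in the overexpressors, against 7.62 and 7.76 in wild type. The difference was 1.01 (SE 0.11, limma adjusted p = 0.00237), and 0.50 with the length trend removed. PTST1 (AT5G39790), which targets granule-bound starch synthase to starch, and PTST2 (AT1G27070), which provides substrate for granule initiation, did not pass. PTST1 differed by -0.03 (SE 0.10) and PTST2 by 0.22 (SE 0.13). In starch breakdown, 1 of 2 measured genes rose and none fell. That gene, PWD, encodes a glucan dikinase and differed by 0.36 (SE 0.10, limma adjusted p = 0.0401). With any 1 array left out the call was lost, at differences from 0.32 to 0.40. It was also lost with median centring (limma adjusted p = 0.0591) and with a replicate block (limma adjusted p = 0.0801). With the length trend removed, PWD differed by -0.19. DPE1 (-0.25), for a disproportionating enzyme, and the clock gene GI (-0.26) did not pass. Both passed as lower with the length trend removed, at -0.49 for DPE1 and -0.78 for GI.

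In phosphatidylcholine synthesis, 2 of 4 other measured genes rose and none fell. CCT2, for the enzyme that activates phosphocholine with CTP, had 5.85 and 6.03 in the overexpressors, against 5.04 and 4.90 in wild type (0.97, SE 0.11, limma adjusted p = 0.00328). AT1G74320, a second choline kinase gene, differed by 0.44 (SE 0.10, limma adjusted p = 0.0226), a call that each omission of 1 array ended (adjusted p from 0.0612 to 0.100). CCT1 (0.22), a second gene for that enzyme, and the aminoalcohol phosphotransferase gene AAPT2 (0.05) did not pass.

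Families of 5 members were looked up after the members' values were seen, and comprise 36 genes, 21 of them with a named probe set. Of the 16 that are not members, 11 rose and none fell, while 5 did not pass. Their median difference was 0.80, against -0.02 over all probe sets. The 5 that did not pass had mean signals of 3.98 or less in both groups. The lower quartile of wild-type means over all probe sets was 3.51. Of those that rose, AT3G19370 (3.10), AT2G23360 (3.60) and AT1G77580 (3.86) had wild-type means as low. How far such signals lie above background is unknown. The median length of these 16 genes was 3407 bp, and 12.5% of nuclear probe sets for genes from 2000 to under 4000 bp and 28.7% for longer genes passed as higher. With the length trend removed 8 of the 16 were higher and none lower, with a median of 0.51. No share of all nuclear probe sets under that setting stands beside this count. Among the filament-like plant proteins 5 of 6 others rose. AT3G05270 had 5.28 and 5.19 in the overexpressors and 4.03 and 4.17 in wild type (1.14, SE 0.10, limma adjusted p = 0.00160). AT3G19370 (1.04), AT1G47900 (1.02), AT2G23360 (1.002) and AT1G77580 (0.79) also rose, and AT1G21810 (0.46, SE 0.18) did not pass, except without wild-type replicate 1 (0.73, adjusted p = 0.0235). These 5 rises passed in each of the 4 fits without 1 array.

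Of the other CRM domain genes 3 of 5 rose. They were AT4G29750 (1.58, SE 0.11, limma adjusted p = 0.000803), CFM3B (1.22, SE 0.21), and the splicing factor gene CAF1 (0.45, SE 0.12). Without any 1 of the arrays CAF1 did not pass (adjusted p from 0.0551 to 0.158). CFM3B had 5.68 and 5.58 in the overexpressors, against 4.75 and 4.07 in wild type, and its difference ran from 0.88 to 1.56 with 1 array left out. CFM4 (AT4G13070, -0.22) and CFM9 (AT3G27550), whose mean signal was 3.43 in the overexpressors and 3.43 in wild type, did not pass.

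The methyltransferase gene NMT2 (AT1G48600) was higher with 10.60 and 10.61 in the overexpressors, against 9.80 and 9.80 in wild type (0.81, SE 0.09, limma adjusted p = 0.00317). The M16 peptidase gene AT2G41790 rose by 0.93 (SE 0.12, limma adjusted p = 0.00395) but had 0.31 and no call with the length trend removed (adjusted p = 0.125), and AT3G57460 (0.21) did not pass. Among the phosphoinositide kinases AT1G60890 rose by 0.46 (SE 0.13, limma adjusted p = 0.0437), a call that was lost without overexpressor replicate 2 (0.33), wild-type replicate 1 (0.38) or wild-type replicate 2 (0.54). PIP5K8, the symbol of AT1G60890, differed by 0.10 with the length trend removed (adjusted p = 0.666), and it narrowly missed the threshold after quantile normalization (adjusted p = 0.0501) and median centring (adjusted p = 0.0509). PIP5K11 (0.08) did not pass.

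**Figure D2:**
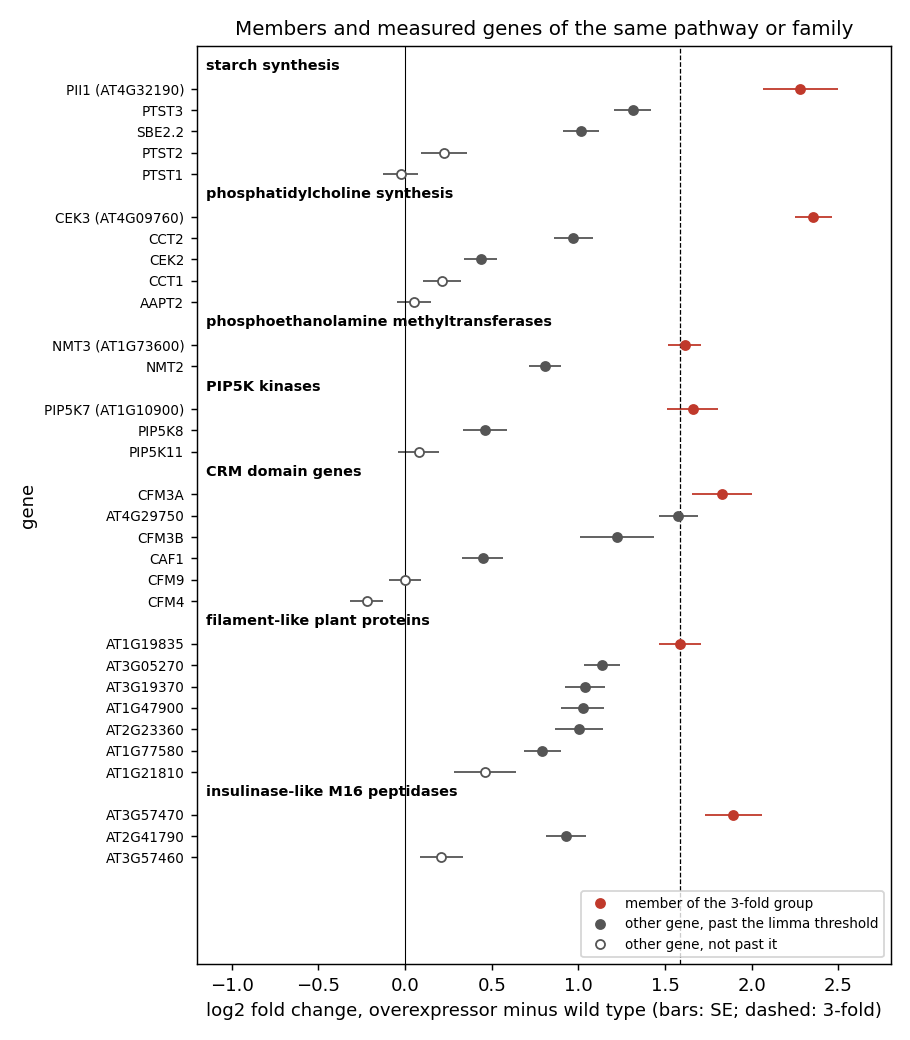
Log2 fold change, overexpressor minus wild type, with the limma SE as bars (n = 2 arrays per group), for members (red) and for measured genes of the same pathway or family (grey; filled where past the limma threshold, open where not). The members lie at or right of the dashed 3-fold line, and no other gene shown reaches it.

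Gene length was not used to choose the members. In RefSeq (assembly TAIR10.1, introns included) the 18 named members had a median length of 4014 bp, from 2093 bp for AT1G13650 to 6869 bp for AT3G57470. Across 13367 probe sets that read 1 nuclear gene of known length, genes had a median of 2122 bp, and 45.4% of them read genes under 2000 bp, a class that holds 0 of the 18 members. Genes from 2000 to under 4000 bp held 8 members among 5667 probe sets (0.141%), and genes of 4000 bp or more held 10 among 1628 (0.614%). Named nuclear genes at least 3-fold lower in the overexpressors (72 probe sets) had a median length of 1142 bp. These figures describe the members and carry no test.

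**Figure D3:**
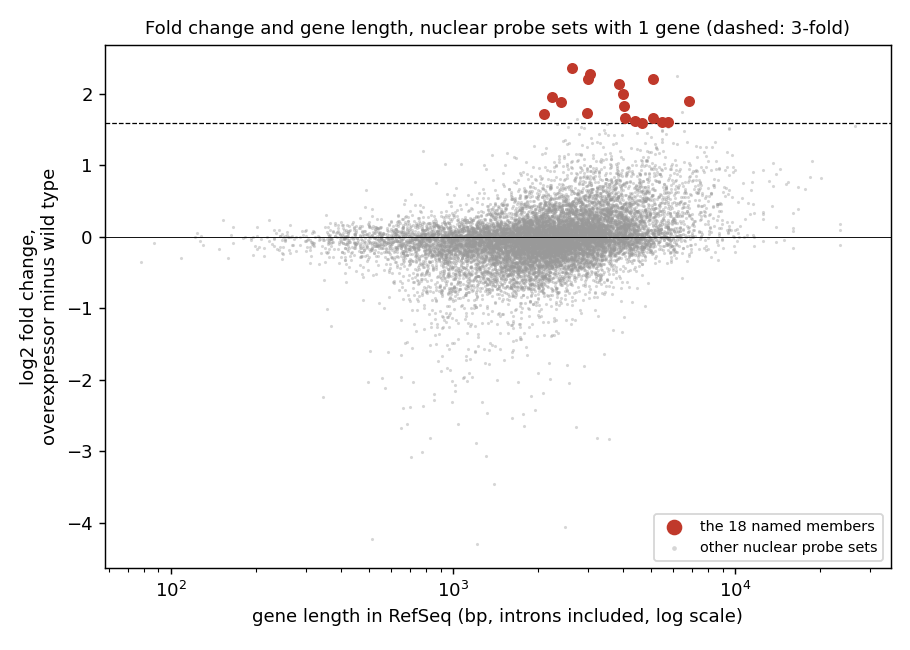
Log2 fold change, overexpressor minus wild type, against RefSeq gene length on a log axis for 13367 probe sets that read 1 nuclear gene (grey) and the 18 named members (red), with 3-fold as the dashed line. All 18 members read genes longer than 2000 bp, and grey points of at least 3-fold are ATSPS4F, CRR21 and CHR17, which were left out by name.

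Signal moved with gene length on the arrays as a whole: the median difference was -0.09 for nuclear genes under 2000 bp, 0.01 from 2000 to under 4000 bp and 0.17 for longer ones. The part of this trend in the members was examined by removing it from each array, which also takes out any biological relation to length. With the trend removed the 18 named members differed by 1.19 to 2.30 (median 1.67), so that all 18 were still at least 2-fold higher and 10 at least 3-fold. The 8 that then lay under 3-fold were AT3G57470 (1.42), CFM3A (1.57), AT5G63700 (1.40), AT1G10900 (1.29), AT1G73600 (1.28), AT5G46070 (1.22), AT2G21440 (1.19) and AT1G19835 (1.26). All 8 are longer than 4000 bp. AT4G09760 (2.30), AT4G32190 (2.17) and AT5G56850 (2.11) then had the highest values, and AT1G70200 (2.03) and AT1G13650 (1.75) lay slightly above their values before removal. AT4G33740 and AT1G47400, which are not members, were past 3-fold with the trend removed, at 1.63 and 1.68.

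**Figure D4:**
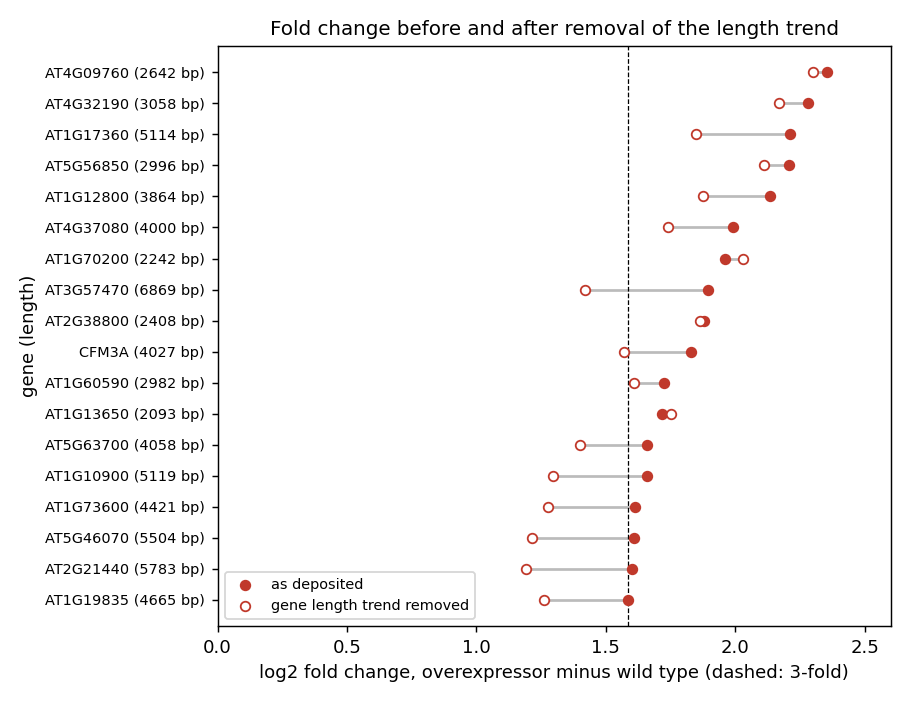
Log2 fold change, overexpressor minus wild type, of the 18 named members as deposited (filled) and with the length trend removed (open). That trend is the part of the differences between arrays that moves with gene length. Gene length stands beside each name, and 3-fold is the dashed line. The shift grows with length, up to 0.47 for AT3G57470, and 10 members stay at or beyond 3-fold.

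The rule did not use transcript number, overlap with other genes or chromosome either. Of the 18 named members 9 (50.0%) have a single RefSeq transcript, against 58.6% of the 12378 nuclear probe sets with a transcript number, and AT5G56850 has the most, 8. A span that overlaps another annotated gene was found for 5 of 18 (27.8%), against 27.2% of 13217 nuclear genes. The array protocol used here does not settle how far an overlapping transcript adds to such a signal. Chromosome 1 carries 8 named members among 3451 nuclear probe sets with 1 gene (0.232%) and chromosome 4 carries 3 among 1962 (0.153%). Chromosome 5 has 3 among 3008 (0.0997%), chromosome 2 has 2 among 2200 (0.0909%) and chromosome 3 has 2 among 2746 (0.0728%). These shares rest on few members and carry no test.

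The genes next to the members on the chromosome were examined as well. Of 36 adjacent protein-coding genes 17 have a named probe set, none is a member and none was 2-fold higher. They differed by -0.96 to 0.77, with a median of -0.31, against -0.02 over all probe sets. By limma 1 of 17 was higher (5.88%, against 12.2% of all probe sets) and 4 were lower (23.5%, against 11.8%). These 5 are named after their values were seen. AT5G63710, next to AT5G63700, was higher with 6.84 and 6.52 in the overexpressors, against 5.89 and 5.93 in wild type (0.77, SE 0.13, limma adjusted p = 0.00959). AT2G38790, next to AT2G38800, was lower with 5.34 and 5.41 in the overexpressors, against 6.37 and 6.29 in wild type (-0.96, SE 0.10, limma adjusted p = 0.00220), and AT1G13670, next to AT1G13650, differed by -0.63 (SE 0.10). AT1G12790 (-0.50) and AT4G37090 (-0.52) were lower too, but of the 4 fits without 1 array, AT1G12790 passed in that without wild-type replicate 2 (-0.64) alone and AT4G37090 in that without overexpressor replicate 1 (-0.71) alone. With the length trend removed neither passed, at -0.51 for AT1G12790 and -0.29 for AT4G37090. AT5G63710 (0.56), AT2G38790 (-0.57) and AT1G13670 (-0.53) still passed in that setting. The lengths of the 17 neighbours are not given here, and the part of the length trend in their shares and median was not tested.

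Facts of the arrays that bear on these values were as follows. Of 12 shoot markers 4 have a named probe set (RCA, LHCB4.1, PRK and SBPASE), all at log2 signals from 11.89 to 13.99, with summed linear signals of 40898 and 38016 in the overexpressors and 30882 and 31297 in wild type. Of 5 markers of the guard-cell lineage SPCH and MUTE were measured, with summed signals of 53.7 and 63.3 in the overexpressors and 43.3 and 39.8 in wild type. The measured root marker, EXPA7 (1 of 7), and shoot meristem marker, CLV3 (1 of 4), lay between 3.03 and 3.78 on all arrays, and flower and seed markers are not analysed here. The 3-prime minus 5-prime log2 signal of the control transcripts, a measure of RNA integrity, was 0.41 and 0.43 in the overexpressors and 0.49 and 0.45 in wild type for GAPDH. It was 3.17 and 2.87 in the overexpressors and 3.03 and 3.16 in wild type for actin. A second actin pair had 1.55 and 1.29 in the overexpressors and 1.28 and 1.45 in wild type. Over all arrays a second GAPDH pair ran from -0.26 to 0.04. The ubiquitin pairs ran from 1.09 to 1.12 and from 0.03 to 0.17. All 24 probe sets for control RNA added before labelling were lower in the overexpressors (median -0.59). The part of these differences in the members' values was not tested. No probe set is paired with bHLH122, so the overexpressed gene gives no check of the labels.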

How the data were processed

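Total RNA of 4 shoot samples was labelled with biotin by in vitro transcription, per the labels' protocols. Intensity values were deposited on a linear scale, 1 for each array and probe set. The submitters' processing notes name RMA, whose version, like the step back to linear values, is not given in the sources used here. The log2 of the deposited intensity was used with no further normalization.

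Genes were named from the platform annotation (1 gene for 13513 probe sets, several for 503, none for 8730), updated by Entrez identifier in RefSeq (13436 matched). Roles of loci without a RefSeq symbol are general background knowledge. Two-sided comparisons of other genes used limma 3.58.1 (R 4.3.3), by lmFit with a group term alone and eBayes, tested on simulated data. The Benjamini-Hochberg adjustment ran over 22746 probe sets, with a threshold of 0.05. The fit had 2 residual degrees of freedom and 4.24 prior ones, which come from all probe sets together. The number of arrays limits the precision. The length trend was removed by a lowess curve per array on log2 gene length (span 0.5, within 4 bins of mean signal). The curve was fitted to the deviation of each probe set from its mean over the 4 arrays. It therefore takes out differences between arrays that move with length, and a trend common to all arrays remains.

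The members, the lists and the tests were chosen with earlier results of these data known, and gene families after the members' values were seen. All members with 1 gene were named. Other genes were named from the lists (all past the threshold, and up to 4 a list by smallest p), from the 3 named genes nearest the 3-fold threshold on each side, and, after their values were seen, from the families and called neighbours. The labels state no pairing of the replicate numbers, and the main fit used none. Same-numbered deviations correlated at -0.0410 across probe sets. With 1 deviation per group, this value cannot settle whether the arrays were paired. Sequences and promoter motifs are not analysed here. The settings tried were other normalizations, filters on dim probe sets, other fold thresholds, a variance trend, a replicate block and leaving out each array.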

Additional observations from a re-analysis of the deposited data

How the results depend on the processing

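The number of members, 30, was 29 after quantile normalization (27 shared), 23 with median centring (23 shared), 30 and 22 when probe sets up to the lower quartile or up to the median of mean signal were left out, and 29 to 40 with 1 array left out (24 to 28 shared). It was 342 at 2-fold and 6 at 4-fold, 18 with 1 probe set per gene or with nuclear probe sets of 1 gene only, 12 with the length trend removed (against those 18 nuclear ones, 10 shared) and 13 when every array pairing had to be 3-fold. Stricter or looser thresholds and fewer probe sets give these by construction; for the removal of the length trend the cause was not tested. The last setting and the nuclear-only count were chosen after seeing the data. Of 198 values of members under these settings, 35 lay under 3-fold (lowest 1.19, with the length trend removed). Their direction was fixed by the choice of members. The median gene length of 4014 bp was 3027 bp for the 12 members brighter than the median, against 2267 bp for nuclear probe sets as bright; the cause was not tested. The limma count over all probe sets, 5460, was 3318 to 3586 with 1 array left out, with fewer samples by construction and the spread of a single array taken from the other group, and 3612 with the replicate block. For the 32 related or neighbouring genes, 291 values kept direction and call, 34 lost and 3 gained a call (AT1G21810, and DPE1 and GI as lower with the length trend removed), and 8 changed sign, with the cause not tested. Those were PWD (-0.19) and AAPT2 (-0.16) with the length trend removed, PTST1 (-0.0884 to 0.0363) and PIP5K11 (-0.0459 to 0.202) without wild-type replicate 1, over ranges with 1 array left out, and CFM9, at -0.0333 with median centring, -0.0163 with the length trend removed, and -0.0230 to 0.0230 with 1 array left out. The alternatives by protein length and promoter window were not run, since no such sequences were used here.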
